A study of Mus musculus with 10 samples.

Results

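Fibroblast growth factor (Fgf) signalling in the neonatal mouse cochlea was described through the open chromatin around 33 of its genes: 21 ligand genes, 4 receptor genes (Fgfr1 to Fgfr4) and 8 genes that the pathway switches on and that feed back on it (Spry1, Spry2, Spry4, Spred1, Spred2, Dusp6, Etv4 and Etv5). The rule names the genes and uses no measured value, although the set was proposed with earlier results of these data known. Of 64911 accessible regions in the series, 128 had one of these genes as the nearest protein-coding gene within 100 kb. Of these, 45 belonged to ligands, 35 to receptors and 48 to feedback genes. Fgf16 was the 1 gene of the 33 with no region at any age.

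ATAC-seq, an assay that reads open chromatin by where a transposase can cut, was run on whole cochleae of outbred CD1 mice. The ages were postnatal day 2 with 3 animals, day 5 with 3 and day 8 with 4, termed P2, P5 and P8. The labels give no mutation, treatment or sorted cell type, and both cochleae of an animal were combined before nuclei were purified, so a region can stem from any cell of the dissected tissue. The study sought regulatory elements relevant to development at these ages, which precede the onset of hearing. The deposited data are 1 peak list per age, with 52085, 47683 and 43878 peaks in order of age, so no spread between animals exists and no p-value is given. Peaks of the 3 lists that overlapped by at least 1 bp formed a region. A region called at P2 and not at P8 is termed lost, and the reverse gained. A peak's strength is given by the authors' ranking value, on a −log10 p-value scale, and by its place in the list of its age, a percentile with 100 at the top. The lists differ in length and in the lowest ranking value they hold (19.5, 13.5 and 11.4 in order of age), so places at different ages are set side by side without being read as a change. Intervals are Wilson 95% intervals, treat the regions of a gene as independent and cover counting error only.

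Most Fgfs are secreted proteins that bind receptor tyrosine kinases together with heparan sulfate and activate the MAP kinase cascade. The cascade induces the ETS transcription factors Etv4 and Etv5, and also its own brakes: Sprouty and Spred proteins, which dampen Ras signalling, and Dusp6, a phosphatase of ERK. In the cochlea, Fgf20 and Fgfr1 are known for the formation of the sensory epithelium, and Fgf8 from inner hair cells acts on Fgfr3 in the forming pillar cells.

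Ligand genes had fewer regions at P5 and P8 than at P2, whereas feedback genes had as many at P8 as at P2. In order of age, ligand regions numbered 40, 28 and 25, receptor regions 28, 25 and 23, and feedback regions 40, 35 and 40. All regions of the series also fell in number, from 51910 to 47561 and 43787. From P2 to P8, ligands lost 18 of 40 regions (45%, interval 30.7 to 60.2), receptors 11 of 28 (39.3%, 23.6 to 57.6) and feedback genes 7 of 40 (17.5%, 8.75 to 32.0). Over all regions of the series called at P2, 32.7% were lost. The feedback interval lay below that background, and the ligand and receptor intervals held it. Single genes weigh heavily in these shares. Spred2 alone gave 11 of the 40 feedback regions at P2 and 1 of the 7 lost. Fgfr2 gave 11 of the 28 receptor regions and 4 of the 11 lost. Gained regions made up 3 of the 25 ligand regions at P8 (12%, 4.17 to 30.0), 6 of 23 receptor regions (26.1%, 12.5 to 46.5) and 7 of 40 feedback regions (17.5%), against 20.2% of all regions called at P8. All 3 of these intervals held the background. With only the upper 50% of each list, the feedback interval for gains lay above it. With every region within 50 kb counted, the ligand interval for gains lay below it. Of all changed regions, 3 of 21 in ligands, 6 of 17 in receptors and 7 of 14 in feedback genes were gains, against 34.3% in the series. Regions called at all 3 ages were 19 of 45 for ligands, 16 of 35 for receptors and 30 of 48 for feedback genes, against 50.3%.

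How both shares stood to the background depended on the peaks counted. The feedback interval also lay below it with an IDR (irreproducible discovery rate) of at most 0.01 (5 of 33 lost, 15.2%, beside 33.5% of all regions), with lists of equal length (3 of 33, 9.09%, beside 24.9%) and with each region given to the gene with the nearest end (7 of 40). As above, the backgrounds also count regions with no gene within 100 kb. The feedback interval held the background in the 6 other settings tried. With only the upper 50% of each list, the feedback share was above it, at 7 of 18 (38.9%, beside 29.4%). The ligand interval lay above the background in 4 settings. These were an IDR of at most 0.01 (22 of 36, 61.1%, interval 44.9 to 75.2), lists of equal length (14 of 35, 40%, 25.6 to 56.4), the nearest gene end (16 of 32, 50%, 33.6 to 66.4) and merging only at an overlap of 50% of the peak width (20 of 40, 50%, 35.2 to 64.8, beside 34.3% of all regions). When each ligand counted every region within 50 kb, whatever gene was nearest, the share was 31.6% (30 of 95), beside 32.7%.

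**Figure D1:**
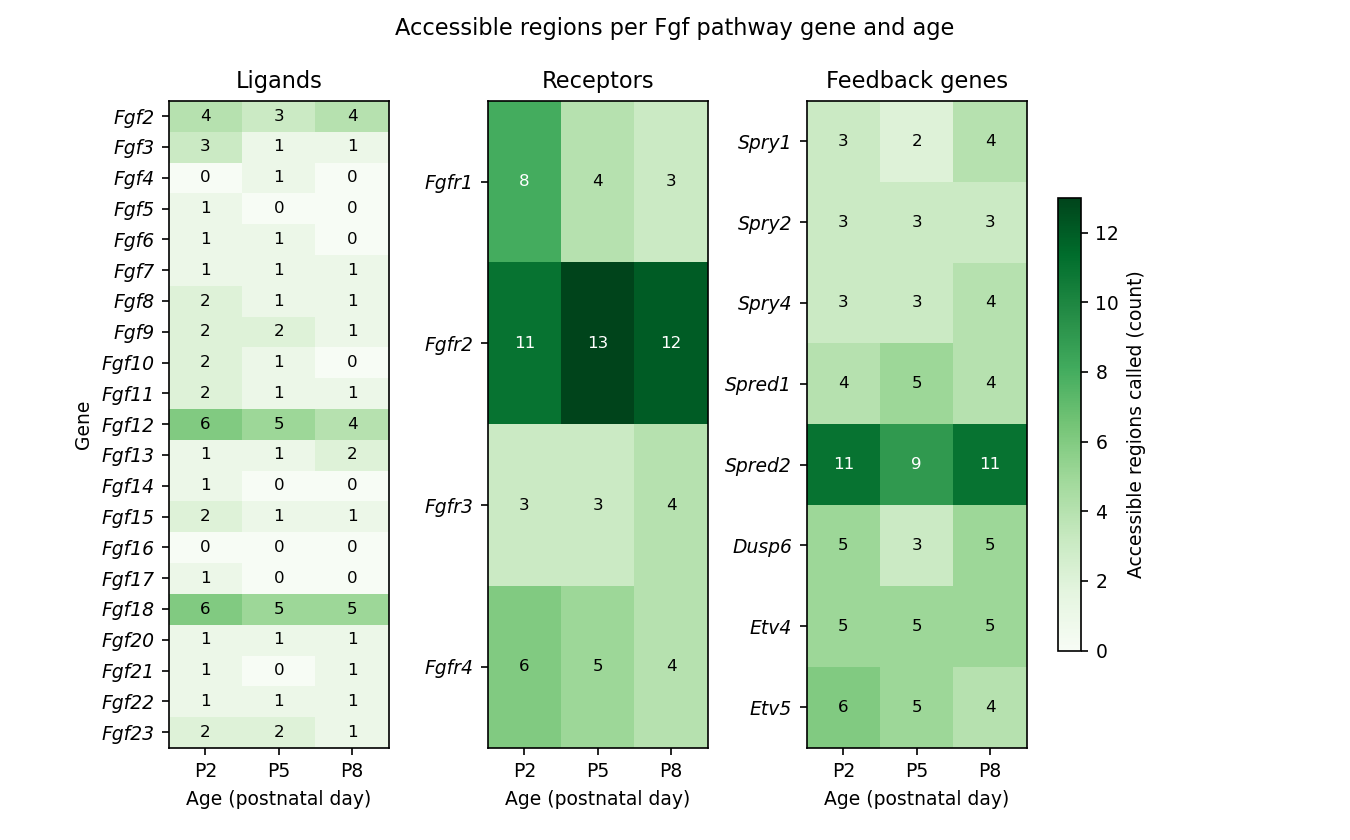
Number of accessible regions called at P2, P5 and P8 (columns) for each gene (rows) in the ligand, receptor and feedback groups, printed in each cell and shown by shade. Fgfr2 held 11, 13 and 12 regions and Spred2 11, 9 and 11, whereas 6 ligands with regions at earlier ages had 0 at P8.

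**Figure D2:**
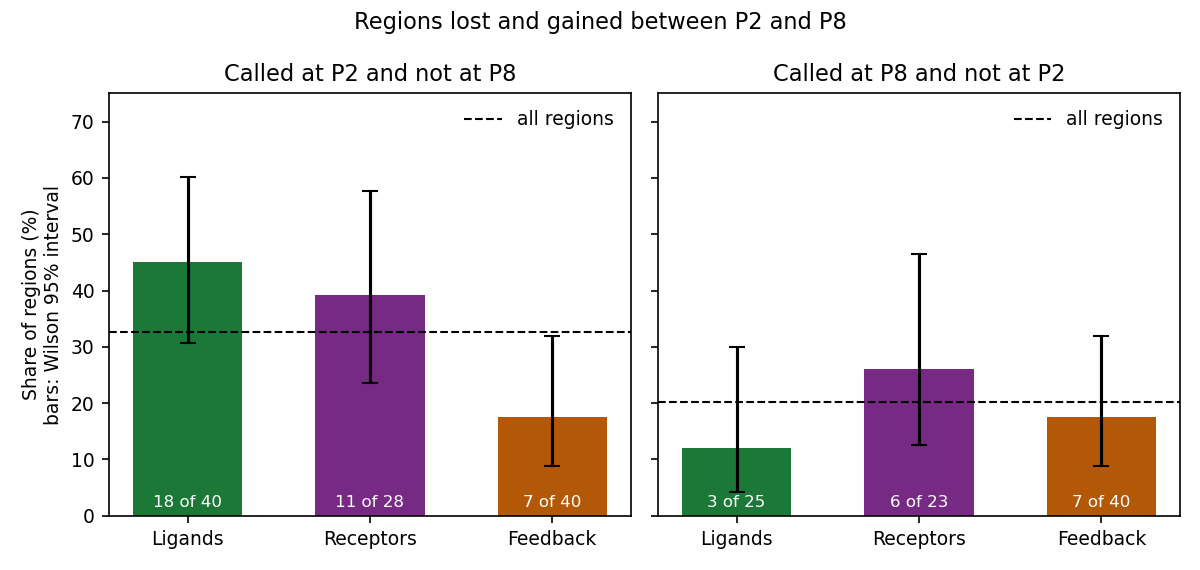
Share of each group's regions (vertical axis, percent, from 0) that were called at P2 and not at P8 (left) or at P8 and not at P2 (right), with the counts in the bars, Wilson 95% intervals as error bars and the share over all regions as a dashed line. The feedback bar for lost regions and its interval (8.75 to 32.0%) lie under the dashed line at 32.7%. That line also counts regions with no gene within 100 kb.

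The promoters of the 3 groups were compared separately. A window of 300 bases around the gene start, from 250 before to 50 after it, was given by RefSeq (GRCm38.p6, the same build as mm10) for 25 of the 33 genes, and for 17492 protein-coding genes in all. Fgf8, Fgf15, Fgf16, Fgf17, Fgf20, Fgfr1, Spry4 and Etv4 had none. A peak overlapped the window of 8 of 16 ligands at P2, 5 at P5 and 4 at P8, against 54.5%, 51.8% and 51.6% of all genes. Of the 8 ligand windows overlapped at P2, 5 were not overlapped at P8 (Fgf5, Fgf10, Fgf12, Fgf14 and Fgf23), while 7.31% of all genes overlapped at P2 showed this. Windows of 5 of 6 feedback genes (Spry1, Spred1, Spred2, Dusp6 and Etv5) were overlapped at all 3 ages, as were those of 3 ligands (Fgf2, Fgf7 and Fgf22), 0 receptors and 49.4% of all genes. The Spry2 window had no peak, but the Spry2 region of highest place lies just upstream of it. Ligands had such near misses too. The Fgf9 region called at all ages ends at 58072434, and the Fgf9 window, overlapped at no age, begins at 58072436. A Fgf12 region called at all ages ends at 28564409, and another of the Fgf12 windows begins at 28564446. Fgfr4 had a peak over its window at P2 alone, Fgfr3 at P2 and P8, and Fgfr2 at no age.

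Some genes have several starts, so the 25 genes had 33 windows. The 8 windows of these genes that were overlapped at all ages had a median GC content of 63.2% and a median of 21.5 CpG dinucleotides, and the 8 overlapped at 1 or 2 ages had 65.5% and 19.0. Over all protein-coding windows the corresponding medians were 62.3% and 22, and 60.0% and 15. The 17 member windows overlapped at no age had 60.0% and 19, beside 49.0% and 4 for all such windows. Windows were searched on both strands for the letters of 6 motifs. CCAAT, bound by the factor NF-Y, was found in 6 of the 8 windows overlapped at all ages (Fgf7, Fgf22, Spry1, Spred2, Dusp6 and Etv5) and in 2 of the 8 overlapped at 1 or 2 ages (Fgf12 and Fgfr3), against 40.1% and 28.5% of all protein-coding windows of those kinds. In windows overlapped at no age it was found in 4 of 17 of these genes and in 37.8% of all. Over all genes, the shares with CCAAT were thus near each other in windows always and never overlapped. CCGGAA was the only form of ETS factor site searched. It was found in 4 of 33 member windows (12.1%, in Fgf5, Fgf12, Fgfr4 and Spry2) and in 18.7% of all windows. Among windows overlapped at all ages it was found in 0 of 8 member windows and in 31.5% of all. GGGCGG (Sp and Klf factors) was found in 21 of 33 (63.6%, all windows 46.2%), CANNTG (E-box) in 22 (66.7%, 69.0%), TATAAA in 3 (9.09%, 12.6%) and TGANTCA (AP-1) in 2 (6.06%, 6.99%). A match of 1 motif was counted whether or not it overlapped a match of another. These are counts of letters, and none of the shares was tested.

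The 250 bases before the start are shown for 4 of the 5 feedback promoters with a peak at every age. They are also shown for 4 ligand or receptor promoters without a peak at P8. They are written 5′ to 3′ on the strand of the gene, with each CCAAT, on either strand, in capitals. That motif was chosen for display after the counts were seen. Spred1, with a peak at every age, has no CCAAT in its window. Neither have Fgf5 and Fgf14, with a peak at P2 and not at P8, and none of these is among the promoters shown. In order, they lie at chr16:22439571-22439820 (− strand, Etv5), chr10:99262981-99263230 (+ strand, Dusp6), chr3:37639697-37639946 (+ strand, Spry1), chr11:19924192-19924441 (+ strand, Spred2), chr16:28753244-28753493 (− strand, Fgf12), chr6:127072652-127072901 (+ strand, Fgf23), chr13:118714449-118714698 (+ strand, Fgf10) and chr13:55152568-55152817 (+ strand, Fgfr4).
Etv5: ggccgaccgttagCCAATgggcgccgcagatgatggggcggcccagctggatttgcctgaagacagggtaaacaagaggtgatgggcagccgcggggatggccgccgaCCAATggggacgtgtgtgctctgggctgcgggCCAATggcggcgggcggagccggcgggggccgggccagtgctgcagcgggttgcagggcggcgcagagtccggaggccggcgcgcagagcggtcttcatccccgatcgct
Dusp6: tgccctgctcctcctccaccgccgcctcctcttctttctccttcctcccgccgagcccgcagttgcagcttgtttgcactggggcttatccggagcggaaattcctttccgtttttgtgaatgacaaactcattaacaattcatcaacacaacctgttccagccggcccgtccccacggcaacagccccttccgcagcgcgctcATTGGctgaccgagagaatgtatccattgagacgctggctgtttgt
Spry1: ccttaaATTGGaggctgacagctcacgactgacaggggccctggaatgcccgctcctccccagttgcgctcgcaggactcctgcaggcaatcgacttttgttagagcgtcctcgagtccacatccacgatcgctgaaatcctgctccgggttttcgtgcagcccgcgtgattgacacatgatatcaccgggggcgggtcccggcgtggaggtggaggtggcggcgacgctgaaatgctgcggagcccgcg
Spred2: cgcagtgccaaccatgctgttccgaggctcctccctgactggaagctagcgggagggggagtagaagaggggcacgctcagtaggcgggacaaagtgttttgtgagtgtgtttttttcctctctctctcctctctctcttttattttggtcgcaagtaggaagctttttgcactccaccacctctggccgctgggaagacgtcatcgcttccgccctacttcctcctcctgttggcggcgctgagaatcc
Fgf12: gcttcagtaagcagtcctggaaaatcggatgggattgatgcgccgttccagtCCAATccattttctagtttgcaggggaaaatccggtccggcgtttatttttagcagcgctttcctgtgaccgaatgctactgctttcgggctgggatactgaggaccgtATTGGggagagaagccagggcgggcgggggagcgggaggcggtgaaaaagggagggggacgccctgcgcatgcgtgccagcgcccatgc
Fgf23: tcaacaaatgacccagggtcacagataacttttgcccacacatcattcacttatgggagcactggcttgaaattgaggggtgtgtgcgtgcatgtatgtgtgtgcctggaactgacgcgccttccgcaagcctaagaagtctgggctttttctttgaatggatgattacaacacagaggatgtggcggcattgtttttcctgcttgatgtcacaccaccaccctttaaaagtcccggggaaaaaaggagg
Fgf10: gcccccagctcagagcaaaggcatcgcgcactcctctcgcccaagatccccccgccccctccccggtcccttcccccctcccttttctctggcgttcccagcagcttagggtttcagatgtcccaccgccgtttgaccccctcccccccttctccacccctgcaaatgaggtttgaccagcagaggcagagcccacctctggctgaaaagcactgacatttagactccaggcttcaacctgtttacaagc
Fgfr4: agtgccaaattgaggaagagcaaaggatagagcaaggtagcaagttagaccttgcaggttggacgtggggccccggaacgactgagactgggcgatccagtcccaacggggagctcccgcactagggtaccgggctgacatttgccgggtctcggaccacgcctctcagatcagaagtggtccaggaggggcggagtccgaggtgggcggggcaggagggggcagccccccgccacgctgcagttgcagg
The Etv5 stretch holds 3 copies of CCAAT, Fgf12 2, Dusp6 1, and Fgf23, Fgf10 and Fgfr4 0. Spry1 holds 1 and Spred2 0, since the match of the Spred2 window is not wholly within these bases. Of the 250 bases, all lay inside the accessible region in Etv5, Dusp6, Spry1, Fgf12 and Fgfr4, and 217, 143 and 119 did so in Spred2, Fgf10 and Fgf23.

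**Figure D3:**
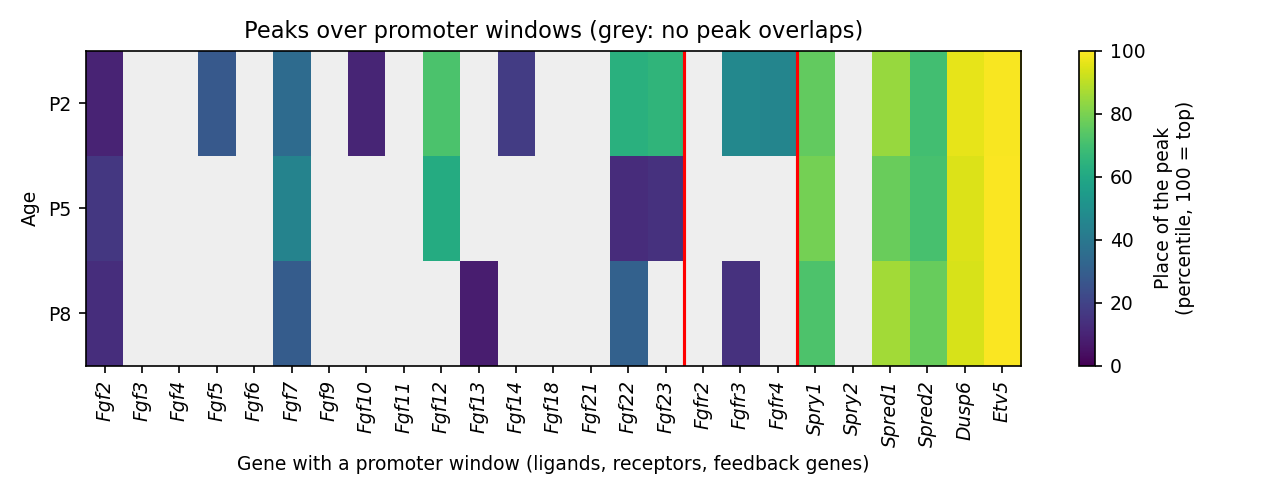
Place (colour, percentile with 100 at the top) of the highest peak over the promoter window of 25 genes (columns, with red lines between ligands, receptors and feedback genes) at P2, P5 and P8 (rows), grey where no peak overlaps. Etv5 and Dusp6 lie between 93.9 and 99.5 at all ages, whereas Fgf12 and Fgf23 turn grey at P8.

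Among the secreted ligands known for roles in the ear, Fgf20 had 1 region, at 40296399 to 40296914 on chromosome 8, 9.4 kb outside the gene, called at all ages with places of 76.3, 78.2 and 69.1 in order of age, as in all triples of values that follow. In the authors' deposited table, the 2 inputs whose agreement made each list gave it ranking values of 165 and 130.5 (P2), 71.2 and 97.7 (P5), and 71.9 and 47.1 (P8). Micu3 lies 10524 bp from this region, so either gene could own it. Fgf8 kept a region 18.2 kb outside the gene on chromosome 19, at 45717400 to 45718297, with places of 61.0, 64.5 and 62.6. Its other region, inside the gene at 45736764 to 45737262, was called at P2 alone, at place 19.2. Fgf9, which signals from epithelium to the mesenchyme around it, had 2, 2 and 1 regions. The Fgf9 region called at all ages, at 58071933 to 58072434 on chromosome 14, stood at 52.8, 28.4 and 25.2. The other, inside the gene and 3.8 kb past the start that defines the Fgf9 promoter window, stood at 19.8 and 4.04 and was not called at P8.

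Fgf3 and Fgf10, which act early in the development of the inner ear, each lost 2 regions and gained 0. All 3 Fgf3 regions lay 14.6 to 39.7 kb before the gene on chromosome 7, and the 1 called at P8 (144798404 to 144798907, places 37.5 at P2 and 25.5 at P8) was not called at P5. Fgf10 had a region 0.1 kb before the gene on chromosome 13 (118714093 to 118714591), called at P2 alone at place 10.3. Its second region, 93.9 kb from the gene, stood at 26.6 and 42.2 and was not called at P8. Both Fgf10 places at P2 were in the lower 50% of the list.

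The ligand regions of highest place belonged to Fgf18, which regulates cartilage and bone growth. Its region 1.2 kb before the gene start on chromosome 11, at 33148311 to 33148813, stood at 77.5, 80.3 and 82.7. Another, at 33078052 to 33078556, stood at 79.9, 66.2 and 52.1. Fgf18 gained 1 region and lost 2, from 6 at P2 to 5 at P5 and 5 at P8. In Fgf2, a growth factor with many target cell types, a region inside the gene at 37380288 to 37380896 on chromosome 3 stood at 39.3 at P2 and at 79.2 and 79.0 at P5 and P8. Its ranking values were 45.3, 74.2 and 67.8, although the median value of the whole list was 57.8, 34.1 and 29.7.

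Fgf11 to Fgf14, which are not secreted and bind sodium channels inside neurons, had 10, 7 and 7 regions, with 4 lost and 1 gained. Fgf12 held 6, 5 and 4 of these. Its region at the most upstream of its starts on chromosome 16, at 28753041 to 28753640, stood at 71.8 at P2 and 61.6 at P5 and was not called at P8. It had the highest P2 place of any lost ligand region. In the authors' deposited table the 2 inputs gave it 108 and 110 (P2) and 43.5 and 49.2 (P5). Fgf13 gained 1 region, over one of its promoter windows, at place 8.18 in the P8 list, where its ranking value of 14.6 was under the lowest of the P2 list.

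Among the hormone-like ligands, Fgf23, which lowers blood phosphate, lost the region at its start on chromosome 6, at 127072783 to 127073281. That region stood at 65.6 at P2 and 14.1 at P5. A second Fgf23 region inside the gene stood at 69.9, 55.8 and 44.0. Fgf15 kept the region 0.3 kb outside the gene on chromosome 7, at places 71.3, 59.1 and 20.7, and lost another. Fgf21 had a single region, called at P2 and P8 and not at P5.

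In all, 13 of the 20 ligands with regions had a net loss from P2 to P8, 1 a net gain and 6 neither, against 38.1% of genes with a net loss and 13.9% with a net gain over all 15868 genes with regions. At P8, 6 of the 20 had no region left (Fgf4, Fgf5, Fgf6, Fgf10, Fgf14 and Fgf17), compared with 7.8% of all genes. Genes with few regions reach 0 more readily: among genes with 1 or 2 regions it was 13.7%, and among ligands with as few it was 6 of 15 (40%).

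Receptor genes differed from each other. Fgfr1 had 8, 4 and 3 regions, with 5 lost and 0 gained. The 3 kept had the highest places of the 8 at P2. The region at the lower-coordinate end of the gene on chromosome 8, at 25518488 to 25518987, stood at 93.0, 88.6 and 91.4. In the authors' deposited table the 2 inputs gave it 385 and 367 (P2), 118 and 171 (P5), and 169 and 134 (P8). The others kept lay inside the gene, at 25537078 to 25537604 (places 85.3, 79.5 and 81.8) and at 25544762 to 25545308 (73.7, 73.0 and 46.5). Of the lost regions, the 1 at 25483644 to 25484142, 34.6 kb outside the gene, stood highest, at 52.1 in the P2 list. The remaining 4 stood between 9.89 and 32.5, and only the 1 near the higher-coordinate end was called at P5.

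Fgfr2, whose isoforms mark epithelium and mesenchyme, had the most regions of any of the 33 genes, 17 in all. It had 11, 13 and 12, with 5 gained and 4 lost. Of the 7 called at all ages, 5 stood above place 60 at P2. These included a region 53.0 kb outside the gene on the side of its start, on chromosome 7 at 130319803 to 130320386 (82.7, 81.4 and 85.0), and 1 inside the gene at 130174463 to 130174966 (83.2, 83.5 and 75.6). The region nearest to the start lay 0.5 kb inside the gene, at 130266061 to 130266560, and stood at 83, 68.3 and 72.6. Among the lost regions, that at 130299132 to 130299639 stood at 76.5 at P2 and 38.7 at P5, and that at 130215752 to 130216260 stood at 51.1 and 2.42. The first had the highest P2 place of all 36 lost regions. The 5 gained regions stood between 6.15 and 42.2 in the P8 list. The net of 1 for Fgfr2 turned to −1 within 50 kb and to −3 with only the upper 50% of each list.

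**Figure D4:**
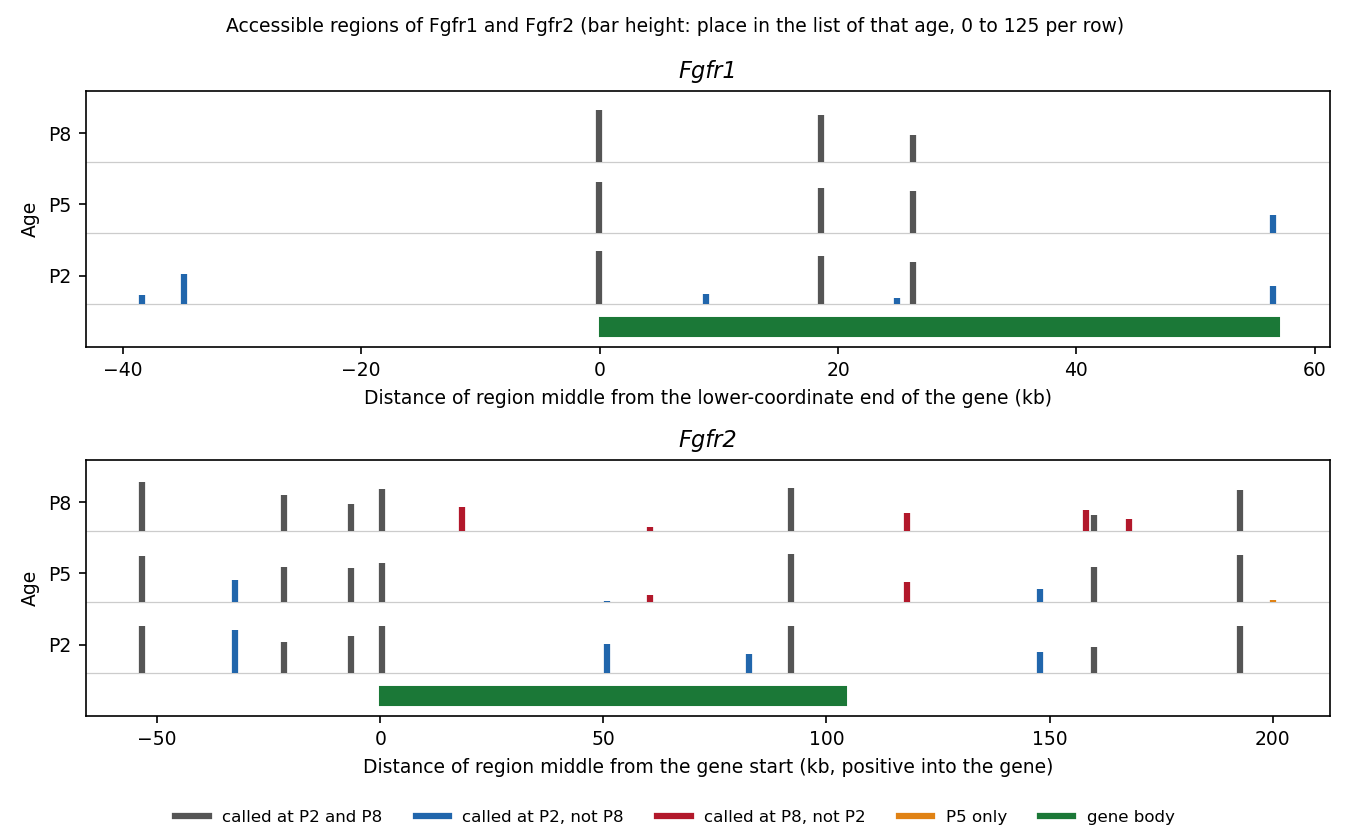
Regions of Fgfr1 (top) and Fgfr2 (bottom) at P2, P5 and P8 (rows), by distance from the gene in kb (horizontal axis), with bar height for the place in the list of that age and the gene body in green. At Fgfr1 the 3 grey regions remain at P8 and the 5 blue ones do not, whereas Fgfr2 has 4 blue regions, 5 red ones, 7 grey ones and 1 called at P5 alone.

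Fgfr3, which is expressed in supporting cells of the organ of Corti, had 3, 3 and 4 regions, with 1 gained and 0 lost. The region over its start on chromosome 5, at 33721475 to 33721976, stood at 46.6 at P2, was not called at P5 and stood at 14.2 at P8. The region with the highest place of Fgfr3 at P2, 4.8 kb outside the gene at 33716421 to 33716919, stood at 52.8 there and at 19.5 and 2.62 at P5 and P8. The highest at P5 and P8, 0.8 kb past the gene at 33737859 to 33738372, stood at 49.0, 55.7 and 37.5, and lies 1301 bp from Letm1. Fgfr4 had 6, 5 and 4 regions, with 2 lost and 0 gained. Its region at the start on chromosome 13, at 55152553 to 55153051, was called at P2 alone, at 45.6. An Fgfr4 region 2.4 kb past the start, at 55154954 to 55155510, stood at 77.4, 88.9 and 90.0, and 1 that lies 13.8 kb outside the gene stood at 81.0, 84.4 and 89.0.

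Feedback regions above place 90 numbered 4 of 40, 6 of 35 and 4 of 40, and receptor regions 1 of 28, 0 of 25 and 2 of 23. By the construction of the scale 10.0% of all regions lie there, so the feedback share at P2 and P8 equalled that of the series. Ligands had 0 of 40, 0 of 28 and 0 of 25. The region of highest place among the 128 was at the Etv5 start on chromosome 16, at 22439515 to 22440062, with ranks of 590, 226 and 202 from the top of each list and places of 98.9, 99.5 and 99.5. The 2 inputs in the authors' deposited table gave it 807 and 664 (P2), 319 and 437 (P5), and 410 and 315 (P8). A second Etv5 region inside the gene, at 22428704 to 22429326, stood at 90.9, 94.9 and 90.1.

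High places were also held by regions at an end of other feedback genes. Places of regions at gene ends over all genes were not compared. The Spry2 region 0.5 kb before the start on chromosome 14, at 105897096 to 105897606, stood at 96.5, 95.6 and 95. The Dusp6 start region on chromosome 10, at 99262959 to 99263457, stood at 96.3, 94.9 and 93.9. For Spry4, the region at the higher-coordinate end on chromosome 18, at 38601125 to 38601629, stood at 86.9, 91.4 and 89.5, and it also overlaps Arhgap26, so either gene could own it. Etv4 had its highest region at its higher-coordinate end on chromosome 11, at 101785155 to 101785659 (87.5, 90.7 and 82.7). The Spry1 start region stood at 75.8, 79.0 and 72.2 and that of Spred1 at 84.8, 77.3 and 86.2.

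Of the 9 regions within 1 kb of an end of a feedback gene, 0 were lost and 0 gained, and the interval of the lost share reached 29.9%. Over all such regions 13.1% were lost and 3.87% gained, so the count of 0 is near the background. Etv5 lost 3 regions and gained 1, a net of −2 that was 2 with only the upper 50% of each list, where the net of Etv4 was −3, and 0 with an IDR of at most 0.01 or lists of equal length. Its gained region, 39.5 kb outside the gene at 22341310 to 22341812, stood at 47.4 at P5 and 54.8 at P8. It was the 1 region of the 16 gained that lay in the upper 50% of the P8 list, where 12% of all gained regions lay. The 3 lost Etv5 regions stood at or below 16.9 at P2. Spry4 gained 2 and lost 1, Spry1 gained 1, and Dusp6, Etv4 and Spred2 gained 1 and lost 1 each. Spry2 and Spred1 gained and lost 0. The lost Etv4 region, at 101830084 to 101830588, stood at 51.1 at P2 and 50.9 at P5, and was the only lost feedback region in the upper 50% of the P2 list. It lies 44774 bp from Etv4 and 46922 bp from Meox1, so either gene could own it.

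Spred2, which had 12 regions, kept 10 of the 11 called at P2. The 9 called at all ages included its start region at 19923902 to 19924408 on chromosome 11 (69.9, 71.1 and 76.7). A Spred2 region 88.8 kb before the gene, at 19835170 to 19835679, stood at 62.0, 59.4 and 10.6, and 1 that lies 1.9 kb past the gene, at 20025884 to 20026487, stood at 32.1, 36.6 and 65.1. In Spry2, a region 82.8 kb before the gene, at 105979637 to 105980135, stood at 25.6, 56.3 and 61.7.

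**Figure D5:**
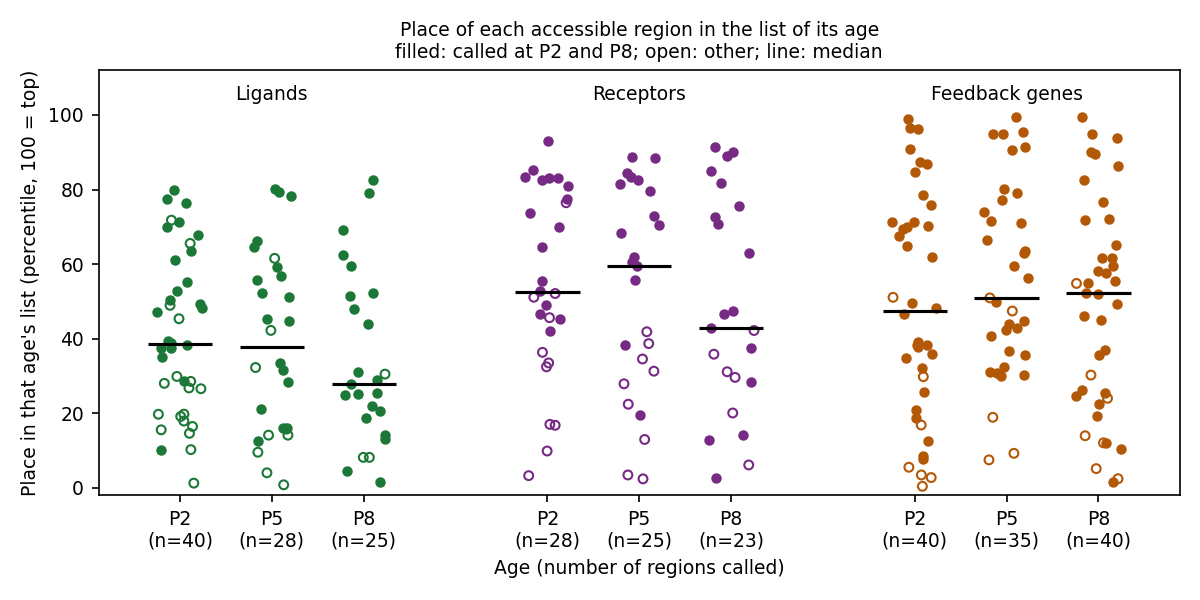
Place of every called region in the list of its age (vertical axis, percentile with 100 at the top) for ligands, receptors and feedback genes at P2, P5 and P8, with filled points for regions called at both P2 and P8, open points for the others and a line at the median. Ligand medians lie at 38.5, 37.9 and 27.8 and feedback medians at 47.5, 50.9 and 52.2, and no ligand point lies above 90.

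How strong a region was at P2 moved with whether it was lost, so the groups were also read within strata. In the lower 50% of the P2 list, ligands lost 16 of 27 regions (59.3%, interval 40.7 to 75.5), near the 57.2% of all regions assigned to a gene. Receptors lost 8 of 12 there (66.7%, 39.1 to 86.2) and feedback genes 6 of 22 (27.3%, 13.2 to 48.2). In the upper 50%, the lost counts were 2 of 13, 3 of 16 and 1 of 18, against 7.53% of all. Within 1 kb of an end of its gene, 5 of 11 ligand regions were lost (45.5%, 21.3 to 72.0), 2 of 6 receptor regions and 0 of 9 feedback regions, where the background was 13.1%. Farther out, 13 of 29 ligand regions (44.8%), 9 of 22 receptor regions (40.9%) and 7 of 31 feedback regions (22.6%) were lost, where it was 38.1%. The part of these features in the group difference was not tested.

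Of the 18 lost ligand regions, 12 were called at P2 alone, as were 60.6% of all lost regions. From P2 to P5, ligands lost 15 regions and gained 3, receptors lost 7 and gained 4, and feedback genes lost 8 and gained 3. Those are 37.5%, 25.0% and 20.0% of the regions at P2, beside 24.2% of all regions, while gains over all regions were 17.2% of those called at P5. From P5 to P8, ligands lost 8 and gained 5, receptors lost 6 and gained 4, and feedback genes lost 3 and gained 8. The losses of this step were 28.6%, 24.0% and 8.57%, beside 22.8% of all regions, and gains over all regions were 16.1% of those called at P8. Both steps share the P5 list. Of the 72 regions of the set called at P2 and P8, 7 were not called at P5, against 6.46% of all. Of the 16 gained regions, 9 had a P8 ranking value under the lowest value of the P2 list, so that the P2 list held no peaks that weak. Over all gained regions this share was 58.0%.

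Other genes of the pathway, from lists written by textbook role, lost regions at shares whose intervals held the background of 32.7%. Co-receptors and modulators outside the cell lost 44 of 128 regions (34.4%, interval 26.7 to 43.0), and 27 of their 111 regions at P8 were gained (24.3%, beside 20.2% of all regions). Of their 24 genes with regions, 6 had a net gain and 12 a net loss, beside 13.9% and 38.1% of all genes. Hs2st1, which modifies heparan sulfate, had 6, 8 and 9 regions, Flrt2 1, 2 and 3, and Gpc1 6, 4 and 7. At the other end were Flrt1, which binds Fgf receptors (10, 6 and 5), Ext1, which builds heparan sulfate chains (12, 11 and 9), and Il17rd, an inhibitor of Fgf signalling (8, 6 and 5). Transducers inside the cell lost 20 of 84 regions (23.8%, 16 to 33.9) and 20 of their 84 regions at P8 were gained (23.8%), with 7 of 25 genes at a net gain and 7 at a net loss. Ptpn11, the phosphatase Shp2, had 3, 4 and 5 regions, and Gab2 2, 2 and 3. Gab1 had 14, 13 and 12, Pik3r1 10, 7 and 9, and Frs2, the adaptor of Fgf receptors, 5, 3 and 4. Other feedback and response genes lost 19 of 78 (24.4%, 16.2 to 34.9) and 7 of their 66 regions at P8 were gained (10.6%), with 2 of 17 genes at a net gain and 10 at a net loss. Among them Ier2 had 4, 5 and 6 regions, Dusp7 4, 4 and 5, and Fos 8, 7 and 8, while Ccnd1 had 11, 7 and 7, Etv1 5, 5 and 3, and Myc 6, 3 and 4. Klb, Frs3 and Spry3 had no region.

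Regions near cell type marker genes were counted. A region near a marker does not show that its cell type was present, so the tissue label was not tested. Regions were called near all 8 supporting cell markers at every age, and they summed to 23, 24 and 28, with a net gain in 5 genes and a net loss in 2 of them. Regions were called near 6 of 8 hair cell markers at each age, and they summed to 22, 15 and 14. Stria markers summed to 52, 43 and 38, and bone markers to 20, 22 and 30. Mesenchyme and fibrocyte markers summed to 18, 13 and 17, and spiral ganglion neuron markers to 12, 12 and 12. Schwann cell markers summed to 10, 7 and 7, and blood markers to 4, 6 and 6. All regions of the series numbered 51910, 47561 and 43787. Intervals of the share each marker list lost from P2 to P8 held the 32.7% of all regions, except for bone (2.79 to 30.1) and skeletal muscle (35.4 to 87.9). Brain markers summed to 11, 7 and 5 (Neurod6 3, 0 and 0, Gad1 6, 6 and 4, Tbr1 2, 1 and 1, Emx1 0 throughout). Skeletal muscle markers summed to 9, 5 and 3 (Myog 2, 0 and 0, Myod1 2, 1 and 1, Myh3 5, 4 and 2). The part of a change in cell makeup in the counts of the Fgf genes was not tested, and fewer cells of a type and less opening per cell cannot be told apart in whole tissue. Of the 128 regions, 2 overlapped another protein-coding gene and 2 lay within 1 kb of an end of one.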

How the data were processed

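ATAC-seq peak lists of the cochlea at P2, P5 and P8 were used, 1 per age. Per the submitters' processing notes, Trimmomatic 0.33, Subread 1.4.6-p3, MACS2 2.1.0 and mm10 were used. Settings, the shift of reads for the transposase and the pooling of animals are not given in the sources used here. Deposited lists have 20 columns in the layout of the irreproducible discovery rate (IDR) method. The authors' ranking value is a −log10 p-value that equals the smaller value of 2 inputs in every line. The authors' scaled IDR score was not used. Peaks are 499 bp wide. The lists hold no read counts, so depth is unknown.

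Starts were taken as 0-based and are given as 1-based. Peaks were merged at an overlap of at least 1 bp and given to the nearest of 21887 protein-coding genes (RefSeq, GRCm38.p6) within 100 kb. Ties went to the gene with an end nearest to the region's middle. Python 3.11.15, pandas 2.3.3 and scipy 1.17.1 were used, and merging and assignment were tested on simulated lists. Full values are given for genes whose gained and lost regions differ by 2 or more and for genes known in the cochlea. Also given are the highest region of each and each changed region in the upper 50% of a list. Other genes named, and the further regions, were chosen after their values were seen. Each other pathway list is shown by 3 genes from either end of its order by net gain, except 1 gene that is not reported here. The genes and lists were chosen with earlier results of these data known.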

Additional observations from a re-analysis of the deposited data

How the results depend on the processing

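No paired analysis was possible because the data hold 1 list per age and no list per animal, so no replicate could be left out either. Of 54 group counts recomputed under 9 alternatives, 36 stayed within 1.5 times the reported count and 18 did not. With peaks merged only at an overlap of 50% of their width, ligands gained 5 regions. With the upper 50% of each list, ligands gained 1 of 7 and lost 7 of 13 (53.8%), and receptors gained 0 of 9 and lost 7 of 16 (43.8%). Feedback genes gained 10 of 21 (47.6%, interval 28.3 to 67.6). Over all regions the shares in this setting were 29.4% lost and 16.2% gained. Net gains then turned to −3 for Fgfr2, −1 for Fgfr3, −1 for Spry1 and 2 for Etv5. An IDR of at most 0.01 left 4 gained feedback regions and a net gain of −1 for Fgfr3. With lists of equal length (43878 peaks), feedback genes lost 3. Within 20 kb, receptors gained 3 and lost 7 and feedback genes gained 3. Within 50 kb, the net gain of Fgfr2 was −1. When every member within 50 kb counted a region, ligands lost 30 of 95 (31.6%, beside 32.7% of all regions). Their gains were then 7 of 72 (9.72%, interval 4.79 to 18.7, beside 20.2%), and the net gain of Fgfr2 was −1. Counting only changed regions also called at P5, ligands gained 1 and lost 6, receptors gained 3 and lost 5, feedback genes gained 2 and lost 2, and the net gain of Fgfr2 was −1. That setting leaves out losses already complete at P5 by its construction. The causes of the other shifts were not tested. Depth is unknown, so an uncalled region may be open below the limit of its list.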

Other observations

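Several Fgf genes lie next to each other in the genome, and their regions can be read together. On chromosome 7, Fgf3 had 3, 1 and 1 regions in order of age, Fgf15 had 2, 1 and 1, and Fgf4 had a single region, called at P5 alone at place 14.1. On chromosome 6, Fgf6 had 1, 1 and 0 regions and Fgf23 had 2, 2 and 1. The Fgf6 region, 10.0 kb outside the gene at 127034730 to 127035237, stood at 28.6 at P2 and 0.822 at P5.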
